A study of Mus musculus with 12 samples.

Results

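The 35 genes described here encode the transcription factor ATF4, its partners and targets, enzymes of serine synthesis and one-carbon metabolism, amino acid transporters and cytosolic aminoacyl-tRNA synthetases. They were chosen by gene symbol, and all 35 were found among the 35492 symbols measured. The 12 RNA sequencing libraries, all of mouse CD4+ T cells, form 4 groups of 3, and titles put each library in its group. All mice were C57BL/6J and 7 weeks old. For Tfh_TILS, cells positive for CD4, CXCR5 and PD1, the receptors by which follicular helper T (Tfh) cells are recognised, were taken from tumours of MC38, a mouse colon carcinoma line. The other 3 groups were cultures of naive spleen and lymph node cells on plates coated with antibodies to CD3 and CD28. Tfh_OTII cultures began with cells of OT-II mice, a transgenic line with 1 fixed T cell receptor that recognises ovalbumin, and Tfh_Vitro cultures with wild-type cells. Both received IL-6 and IL-21 at 50 ng/ml each, and 10 µg/ml each of blocking antibodies against IL-4, IFNγ and TGFβ. Th1_Vitro cultures were wild-type cells given 10 ng/ml IL-12 and 10 µg/ml of the blocking antibody against IL-4. The titles give 48 h for Tfh_OTII and 24 h for Tfh_Vitro and Th1_Vitro, whereas the treatment protocol gives 48 h for the cultures. In the comparison of Tfh_OTII with Tfh_Vitro, the receptor and the labelled time can therefore not be told apart. The labels do not say whether libraries of a group came from separate animals or cultures.

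ATF4 is a leucine zipper transcription factor made when translation initiation is restrained by phosphorylation of the initiation factor eIF2, as happens when amino acids are short or proteins misfold in the endoplasmic reticulum. Short upstream reading frames in its messenger RNA set how much protein is made, so the level of Atf4 RNA is not a measure of ATF4 protein. With C/EBP family partners, ATF4 binds composite C/EBP-ATF elements and raises genes that import amino acids, make serine, glycine and asparagine, and load transfer RNAs. Activated T cells take up large amounts of amino acids and use serine for one-carbon units in nucleotide synthesis.

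The composite element TGATGCAA was searched on both strands of the RefSeq promoter windows (GRCm38.p6, from 250 bases before to 50 bases after a transcript start of each gene), because it is the sequence best known for binding ATF4. Windows were found for 28 of the 35 genes, and 7 of these (25%) held it, against 1.03% of 27025 genes with a window. These 7 were Aars, Atf3, Chac1, Nupr1, Slc1a4, Slc7a11 and Vldlr. The looser form TGATGNAA, which contains the first, was in 10 of 28 (35.7%), against 4.51% of all genes, adding Asns, Gars and Trib3. The cyclic AMP response element TGACGTCA was in 0 of 28, against 2.03% of all genes. These are matches of letters and are given without a test. Genes known as ATF4 targets were chosen for the list, so its higher share is not independent of that choice. The sites that lie before the RefSeq start of their window are printed below with up to 20 bases on either side, written 5′ to 3′ in the direction of the gene, with the element in capitals; TTGCATCA and TTTCATCA are the elements read on the other strand.
Aars, chr8:111033710-111033757, plus strand: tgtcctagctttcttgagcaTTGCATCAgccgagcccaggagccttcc
Asns, chr6:7693210-7693252, minus strand: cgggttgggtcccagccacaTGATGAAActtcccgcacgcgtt
Atf3, chr1:191183416-191183463, minus strand: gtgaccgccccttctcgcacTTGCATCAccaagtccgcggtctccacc
Chac1, chr2:119351029-119351076, plus strand: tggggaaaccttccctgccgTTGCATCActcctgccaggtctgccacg
Gars, chr6:55037951-55037998, plus strand: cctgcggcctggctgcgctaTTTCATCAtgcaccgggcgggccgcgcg
Nupr1, chr7:126625553-126625600, minus strand: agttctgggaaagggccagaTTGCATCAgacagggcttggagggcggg
Slc7a11, chr3:50443652-50443699, minus strand: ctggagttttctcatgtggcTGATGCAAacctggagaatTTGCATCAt
Vldlr, chr19:27216800-27216847, plus strand: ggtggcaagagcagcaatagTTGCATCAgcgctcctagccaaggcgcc

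Slc7a11 carried the element as a pair in opposite orientation, whose first bases lay 66 and 47 bases before the RefSeq start. In Atf3 and Nupr1 the element began 110 bases before that start, and in Aars 112 bases before it. For Aars, Asns, Atf3, Nupr1 and Vldlr the gene span of the GENCODE M21 annotation begins further upstream, so the printed element lies inside the annotated gene, while for Chac1, Gars and Slc7a11 it lies before the span. Vldlr has 2 windows, and 1 of them held the element. Of the 7 genes with TGATGCAA, Nupr1 was called higher and Vldlr lower in Tfh_TILS than in Tfh_OTII. Of all tested genes, 7.97% were called higher and 7.29% lower there. Vldlr was also called higher in Tfh_Vitro than in Th1_Vitro as deposited, against 41.1% of all genes, but not after the scaling described below. The other 5 were called in no comparison as deposited.

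The deposited values are TPM, a share of transcripts corrected for transcript length, and do not tell how deeply a library was sequenced. The sum of the 35 genes was 2291 to 2369 TPM in Tfh_TILS, 2358 to 2595 in Tfh_OTII, 1943 to 2427 in Tfh_Vitro and 1253 to 2988 in Th1_Vitro. Libraries of a group correlated over genes at a Spearman coefficient of 0.863 to 0.954, with the lowest values in Th1_Vitro. The summed level of 7 Tfh markers was 377 to 606 TPM in Tfh_TILS, 261 to 284 in Tfh_OTII, 341 to 382 in Tfh_Vitro and 60.9 to 109 in Th1_Vitro. All 7 were called higher in Tfh_Vitro than in Th1_Vitro as deposited, against 41.1% of all tested genes. After the median-of-ratios scaling described below 1 was, against 8.65%. Of these markers, 5 averaged highest in Tfh_TILS and 2 went the other way among the Tfh groups. Il21 averaged 6.89 TPM in Tfh_TILS, 69.8 in Tfh_OTII and 88.55 in Tfh_Vitro, and Cd40lg 53.5, 111.6 and 104.3 TPM in the same order. The summed level of 5 Th1 markers, 174 to 228 TPM in Tfh_Vitro, lay within the 88.2 to 255 TPM of Th1_Vitro, so this deposited sum did not separate these groups. Singly, 3 of the 5 were called higher in Tfh_Vitro as deposited, against 41.1% of all tested genes. After scaling 0 were called higher, against 8.65%, and 1 lower, against 5.07%. The 10 proliferation markers summed to 521 to 610 TPM in Tfh_TILS, 1850 to 2070 in Tfh_OTII, 999 to 1150 in Tfh_Vitro and 123 to 383 in Th1_Vitro. The groups of each Tfh comparison did not overlap in this sum, and its part in the differences described here was not tested.

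Tfh_TILS replicate 2 and the Th1_Vitro group stood apart from the rest. In Tfh_TILS replicate 2, 12 macrophage and monocyte markers summed to 776 TPM, against 93.6 and 221 TPM in replicates 1 and 3 and 11.1 to 51.0 TPM in all the cultures. Its 4 neutrophil markers summed to 489 TPM, against 13.3 and 91.5 TPM in replicates 1 and 3. None of these markers was at 0 in every library of a group. The same library had 361 TPM of Atf3, against 31.9 and 79.0 TPM in replicates 1 and 3, and was 3.11 times the mean of the other tumour libraries for Nupr1, 2.31 times for Slc7a11, 2.05 times for Ddit3 and 1.97 times for Slc3a2. It was at the same time the lowest of the 3 tumour libraries for 26 of the 35 genes, with a median ratio of 0.674 to the mean of the others, so the 5 genes just named went against most of the 35 in it. The part of these other cells in the tumour values was not tested.

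**Figure D1:**
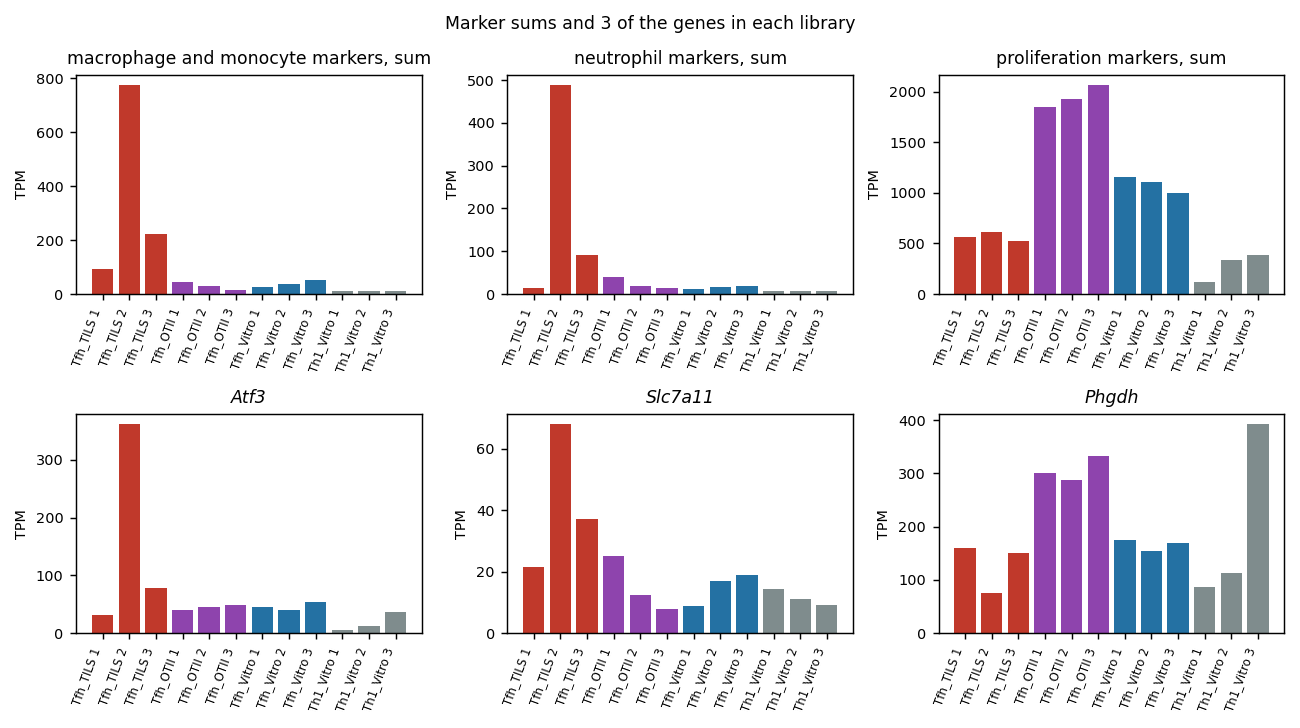
Summed TPM of the macrophage and monocyte, neutrophil and proliferation markers (upper row) and TPM of Atf3, Slc7a11 and Phgdh (lower row), 1 bar per library, coloured by group. Tfh_TILS replicate 2 stands highest for both myeloid sums (776 and 489 TPM), Atf3 (361 TPM) and Slc7a11 (68.0 TPM), while Phgdh is at 75.9 TPM there.

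In Th1_Vitro, 14 gene models that each exceed 1% of at least 1 library took 51.7% to 67.9% of all TPM, against 13.2% to 33.4% in the other groups. Since TPM are shares of a fixed total, the share left for all other genes together was smaller there. Median-of-ratios scaling moved the log2 fold changes by a median of 0.75 in Tfh_Vitro against Th1_Vitro, 0.11 in Tfh_TILS against Tfh_Vitro, 0.081 in Tfh_TILS against Tfh_OTII and 0.039 in Tfh_OTII against Tfh_Vitro. For the comparison with Th1_Vitro, a gene is therefore said to be higher or lower only when it was called in the same direction both as deposited and after scaling. Th1_Vitro replicate 3 was the highest of its group for 30 of the 35 genes, with a median ratio of 2.05 to the mean of the others.

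All 35 genes passed the filter, which asked that a gene average 1 TPM or more in some group, and were among the 23308 genes tested. A gene was called at an adjusted p under 0.05 over all tested genes in limma. In bulk RNA, fewer cells of a type and less RNA per cell cannot be told apart, and this holds for every difference below. Between Tfh_TILS and Tfh_Vitro, 0 of 35 were called higher, against 1.15% of all tested genes, and 0 lower, against 0.944%. Between Tfh_OTII and Tfh_Vitro, 0 were called higher, against 0.987% of all genes, and 1 lower (Stc2), against 1.39%. Between Tfh_TILS and Tfh_OTII, 2 were called higher (Nupr1 and Stc2), against 7.97% of all genes, and 1 lower (Vldlr), against 7.29%. Between Tfh_Vitro and Th1_Vitro, 5 were called higher as deposited, against 41.1% of all genes, and 2 after scaling, against 8.65%; those 2, Ddit3 and Stc2, were called both ways, again against 8.65%. In the same comparison 1 was called lower as deposited, against 0.511% of all genes, and 7 after scaling, against 5.07%, with Slc7a3 alone called both ways, against 0.506%. The shares of the 35 genes called between the Tfh groups were thus at or below those of all genes, except for the single call of Stc2 in Tfh_OTII against Tfh_Vitro.

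A fit of the 2 compared groups alone, in which the spread of Th1_Vitro does not enter, called more of the 35 genes in the comparisons with Tfh_OTII. For Tfh_TILS against Tfh_Vitro it called 0 higher, against 0.59% of the genes it tested, and 0 lower, against 1.24%. For Tfh_OTII against Tfh_Vitro it called 3 higher (Cebpg, Phgdh and Eprs), against 10.2% of the genes it tested, and 5 lower (Ddit3, Trib3, Chac1, Sesn2 and Stc2), against 2.96%. For Tfh_TILS against Tfh_OTII it called 4 higher (Nupr1, Stc2, Slc7a1 and Slc38a2), against 6.73%, and 4 lower (Vldlr, Phgdh, Mthfd1l and Sars), against 9.28%. Groups that do not overlap were also counted. In Tfh_TILS against Tfh_Vitro, every tumour library was higher for 3 genes (Cebpg, Slc7a11 and Slc38a2), against 13.4% of all genes, and lower for 3 (Vldlr, Mthfd1l and Sars), against 10.4%. In Tfh_OTII against Tfh_Vitro, 7 genes were higher without overlap, against 21% of all genes, and 9 were lower, against 8.1%. In Tfh_TILS against Tfh_OTII, 8 were higher without overlap, against 16.8%, and 10 were lower, against 18.2%. Tfh_OTII enters both of the last comparisons, and Tfh_Vitro 2 of those above, so their values are not independent of each other.

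**Figure D2:**
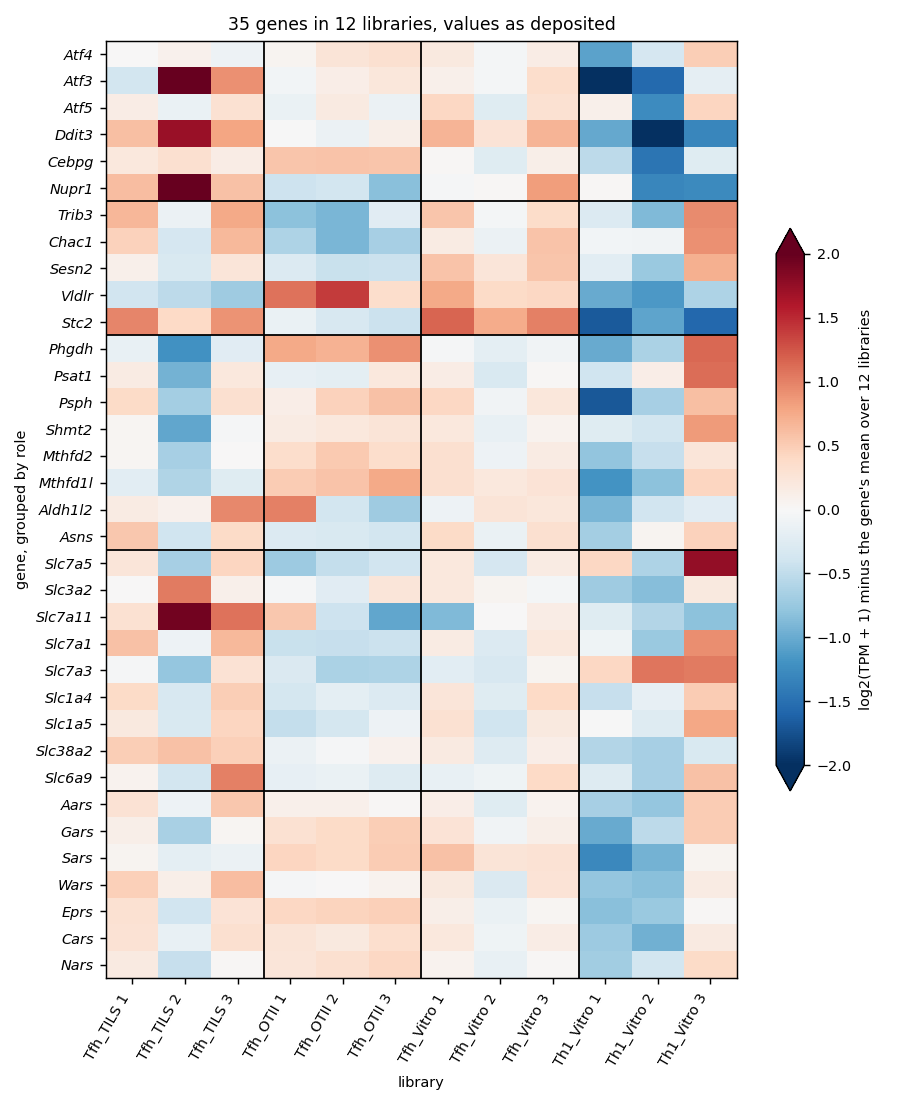
log2(TPM + 1) of each of the 35 genes (rows, grouped by role) in each of the 12 libraries (columns, grouped), minus the gene's mean over the 12 libraries; colours end at 2 and -2. Tfh_TILS replicate 2 differs from replicates 1 and 3 in Atf3, Nupr1, Slc7a11 and the serine enzymes, and Th1_Vitro replicate 3 stands above replicates 1 and 2 for most rows.

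Among the transcription factors, Atf4 itself (chr15:80255184-80257541, plus strand, GRCm38) was called in none of the 4 comparisons. It was at 173, 182 and 160.3 TPM in Tfh_TILS, 178, 206 and 214 TPM in Tfh_OTII, 197, 167 and 190.0 TPM in Tfh_Vitro and 81.3, 136 and 241 TPM in Th1_Vitro. The 3 Tfh groups overlapped one another, and the Th1_Vitro libraries spread over a range that takes in all of them. Its log2 fold change was -0.10 ± 0.31 (SE) in Tfh_TILS against Tfh_Vitro, 0.11 ± 0.31 in Tfh_OTII against Tfh_Vitro, -0.21 ± 0.31 in Tfh_TILS against Tfh_OTII and 0.41 ± 0.31 in Tfh_Vitro against Th1_Vitro, where scaling turned it to -0.67 ± 0.31.

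Ddit3 encodes CHOP, a transcription factor induced by ATF4 that is best known for its part in stress-induced cell death. It was at 71.9, 159 and 82.5 TPM in Tfh_TILS, 47.2, 43.5 and 51.6 TPM in Tfh_OTII, 76.5, 57.4 and 76.1 TPM in Tfh_Vitro and 22.7, 8.08 and 18.6 TPM in Th1_Vitro. Every Tfh_Vitro library was thus above every Th1_Vitro library, and the Tfh_OTII libraries lay below both other Tfh groups without overlap. Ddit3 was higher in Tfh_Vitro than in Th1_Vitro, by a log2 fold change of 2.12 ± 0.36 (SE, adjusted p = 0.000648) as deposited and of 1.09 ± 0.32 (adjusted p = 0.0411) after scaling, and was called under all 13 alternatives. In Tfh_OTII against Tfh_Vitro its log2 fold change was -0.54 ± 0.36 (adjusted p = 0.607), and the fit of those groups alone gave an adjusted p of 0.0401. In Tfh_TILS against Tfh_OTII the log2 fold change was 1.04 ± 0.36 (adjusted p = 0.0703; 0.0512 in the fit of those groups alone), and neither fit called it. The symbol Ddit3 covers 2 overlapping gene models in the annotation on chromosome 10.

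Nupr1 (chr7:126623249-126630861, minus strand) encodes a small stress-induced nuclear protein. It was at 9.27, 28.5 and 9.02 TPM in Tfh_TILS, 4.04, 4.19 and 2.76 TPM in Tfh_OTII, 5.58, 5.84 and 10.95 TPM in Tfh_Vitro and 5.82, 1.72 and 1.77 TPM in Th1_Vitro. All 3 tumour libraries were above all 3 OT-II libraries, and the highest was the library with the most macrophage markers. Nupr1 rose in Tfh_TILS against Tfh_OTII by a log2 fold change of 1.65 ± 0.46 (SE, adjusted p = 0.0282; 1.52 ± 0.44 after scaling, adjusted p = 0.0346). Without Tfh_TILS replicate 2 the log2 fold change was 1.14 (adjusted p = 0.105), and the call was also lost without Tfh_OTII replicate 1 (adjusted p = 0.0511), replicate 2 (0.0634) or replicate 3 (0.108). Over 15 alternatives the adjusted p ranged from 0.0200 to 0.108.

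Atf3, a stress-induced repressor and activator, had the widest spread of the 35 genes among tumour libraries: 31.9, 361 and 79.0 TPM in Tfh_TILS, 40.0, 45.5 and 48.9 TPM in Tfh_OTII, 44.7, 40.4 and 53.4 TPM in Tfh_Vitro and 5.87, 13.4 and 36.7 TPM in Th1_Vitro. It overlapped between Tfh_TILS and each of the other Tfh groups, and its log2 fold change of 1.07 ± 0.71 against Tfh_Vitro had an adjusted p of 0.588. Cebpg, which dimerises with ATF4 at composite elements, averaged 44.0 ± 2.75 TPM in Tfh_TILS, 55.8 ± 0.560 TPM in Tfh_OTII, 36.8 ± 4.89 TPM in Tfh_Vitro and 23.4 ± 9.47 TPM in Th1_Vitro (SD, n = 3 each). Its 3 Tfh groups did not overlap one another, with Tfh_OTII highest and Tfh_Vitro lowest. The log2 fold change of Cebpg in Tfh_OTII against Tfh_Vitro was 0.60 ± 0.27 with an adjusted p of 0.374, and of 0.0167 in the fit of those groups alone. Atf5, a close relative of ATF4, had group means of 6.38 to 7.87 TPM and was called in no comparison.

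**Figure D3:**
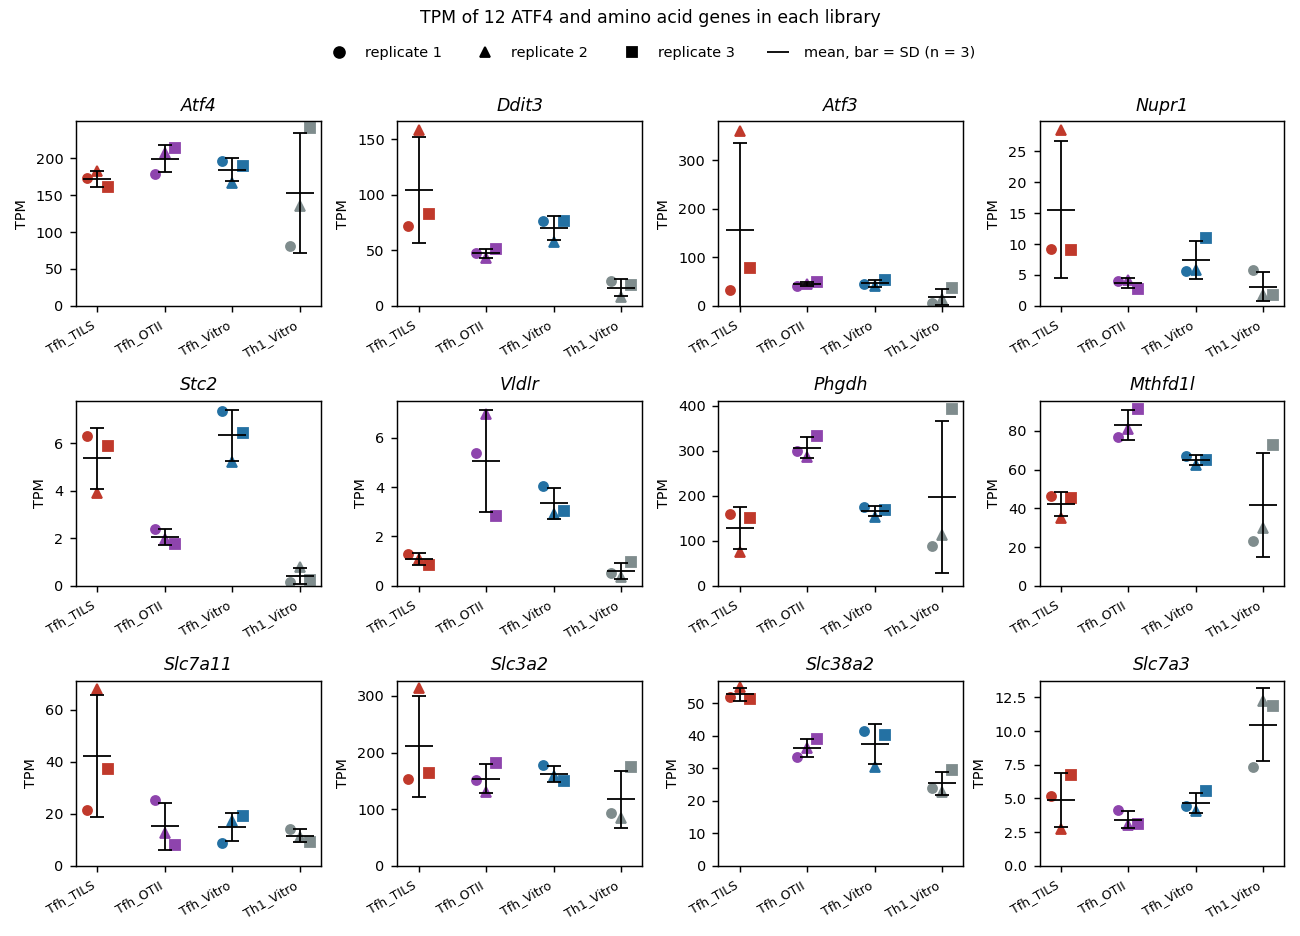
TPM of 12 of the genes in each library, with 1 panel per gene and a linear axis from 0; symbols mark replicates 1 to 3, and bars the mean and SD of the group (n = 3). Stc2 is at 1.76 to 2.404 TPM in Tfh_OTII, below the 3.91 to 6.32 TPM of Tfh_TILS and the 5.21 to 7.34 TPM of Tfh_Vitro, and Vldlr is at 0.842 to 1.30 TPM in Tfh_TILS, below all libraries of the other Tfh groups.

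Of the targets that feed back on the response or act outside metabolism, Stc2 and Vldlr were called between Tfh groups. Stc2 (chr11:31357307-31370074, minus strand) encodes stanniocalcin 2, a secreted glycoprotein. It was at 6.32, 3.91 and 5.89 TPM in Tfh_TILS, 2.404, 1.98 and 1.76 TPM in Tfh_OTII, 7.34, 5.21 and 6.45 TPM in Tfh_Vitro and 0.161, 0.786 and 0.252 TPM in Th1_Vitro. Tfh_OTII lay below both other Tfh groups and above Th1_Vitro with no overlap, and Tfh_TILS overlapped Tfh_Vitro.

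Stc2 fell in Tfh_OTII against Tfh_Vitro by 1.26 ± 0.27 on the log2 scale (SE, adjusted p = 0.0292). It kept its direction but was not called after scaling (adjusted p = 0.0727), nor when any one of the 6 libraries of these groups was left out, where the adjusted p ranged from 0.0504 without Tfh_OTII replicate 1 to 0.142 without Tfh_Vitro replicate 3. It was called under 3 of 14 alternatives. Stc2 rose in Tfh_TILS against Tfh_OTII by a log2 fold change of 1.05 ± 0.27 (adjusted p = 0.0206). That call was lost after scaling (0.94 ± 0.32, adjusted p = 0.0671) and with a pseudocount of 0.1 (0.0845). It was also lost without Tfh_TILS replicate 1 (0.0683) or 3 (0.0710) or Tfh_OTII replicate 2 (0.0701) or 3 (0.0767), and was kept without Tfh_TILS replicate 2 (0.0185). It was kept under 9 of 15 alternatives. In Tfh_Vitro against Th1_Vitro, Stc2 was higher by a log2 fold change of 2.41 ± 0.27 (adjusted p = 5.06e-05), or 1.92 ± 0.32 after scaling (adjusted p = 0.00224), and was called under all 13 alternatives.

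Vldlr (chr19:27216484-27254231, plus strand) encodes a lipoprotein receptor of the LDL receptor family that ATF4 induces under endoplasmic reticulum stress. It was at 1.30, 1.10 and 0.842 TPM in Tfh_TILS, 5.40, 6.95 and 2.85 TPM in Tfh_OTII, 4.07, 2.93 and 3.02 TPM in Tfh_Vitro and 0.504, 0.357 and 0.952 TPM in Th1_Vitro. All tumour libraries were below all libraries of both other Tfh groups. Vldlr fell in Tfh_TILS against Tfh_OTII by 1.49 ± 0.31 on the log2 scale (SE, adjusted p = 0.00591; 1.43 ± 0.29 on that scale after scaling, adjusted p = 0.00595). It was called under 14 of 15 alternatives, the exception being the fit of those groups alone without Tfh_TILS replicate 2 (adjusted p = 0.0539). Against Tfh_Vitro, the log2 fold change of Tfh_TILS was -1.06 ± 0.31 (adjusted p = 0.101), and in Tfh_Vitro against Th1_Vitro it was 1.44 ± 0.31 (adjusted p = 0.00268), not called after scaling (0.92 ± 0.29, adjusted p = 0.0523).

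Trib3, Chac1 and Sesn2 were at their lowest in Tfh_OTII among the Tfh groups. Trib3, a pseudokinase that binds ATF4 and limits its activity, averaged 19.1 ± 5.99 TPM in Tfh_TILS, 8.34 ± 2.54 TPM in Tfh_OTII and 16.8 ± 3.60 TPM in Tfh_Vitro (SD, n = 3 each). Chac1, an enzyme that breaks down glutathione, averaged 6.97 ± 2.58 TPM in Tfh_TILS, 2.87 ± 0.421 TPM in Tfh_OTII and 6.53 ± 1.84 TPM in Tfh_Vitro. Sesn2, a leucine sensor that restrains mTORC1, averaged 12.3 ± 2.51 TPM in Tfh_TILS, 9.01 ± 0.688 TPM in Tfh_OTII and 16.9 ± 2.23 TPM in Tfh_Vitro.

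Every Tfh_OTII library was below every Tfh_Vitro library for Trib3, Chac1 and Sesn2, as it was for Stc2, Ddit3 and Nupr1. The log2 fold changes in Tfh_OTII against Tfh_Vitro were -0.94 ± 0.41 for Trib3 (adjusted p = 0.339), -0.94 ± 0.34 for Chac1 (adjusted p = 0.211) and -0.84 ± 0.32 for Sesn2 (adjusted p = 0.246), and none was called. In the fit of those groups alone the adjusted p was 0.04 for Trib3, 0.0418 for Chac1 and 0.0123 for Sesn2. For Tfh_TILS against Tfh_OTII, the log2 fold change of Trib3 was 1.09 ± 0.41 (adjusted p = 0.0969) and that of Chac1 0.99 ± 0.34 (adjusted p = 0.0682). Without Tfh_TILS replicate 2, which was the lowest tumour library for both, that of Chac1 was 1.29 (adjusted p = 0.0297). The 5 genes of this role had a median log2 fold change of -0.94 in Tfh_OTII against Tfh_Vitro, against 0.05 over all tested genes. In Tfh_TILS against Tfh_OTII their median was 0.99, against 0.06 over all tested genes. In both comparisons 4 of the 5 had the sign of the median, and Vldlr went the other way. Both comparisons use the same Tfh_OTII libraries.

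**Figure D4:**
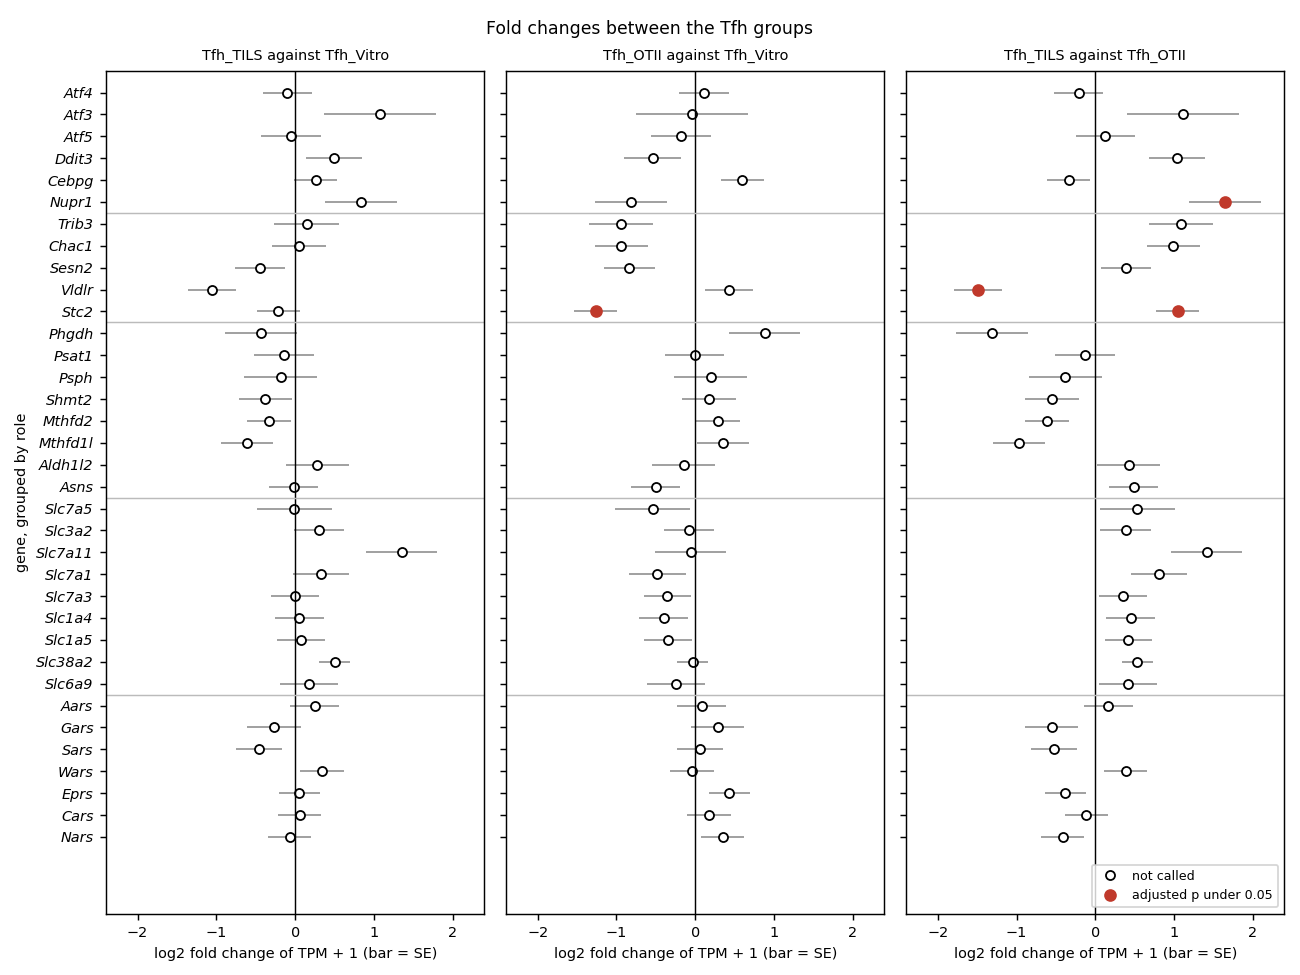
log2 fold change of TPM + 1 for the 35 genes, grouped by role, in the 3 comparisons between Tfh groups, with bars for the SE of limma; red points have an adjusted p under 0.05. Red are Stc2 in Tfh_OTII against Tfh_Vitro (-1.26) and Nupr1 (1.65), Vldlr (-1.49) and Stc2 (1.05) in Tfh_TILS against Tfh_OTII.

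Phgdh, which takes the first step from glycolysis to serine, was at 160.2, 75.9 and 151 TPM in Tfh_TILS, 300.5, 287 and 333 TPM in Tfh_OTII, 175, 154 and 169 TPM in Tfh_Vitro and 87.5, 114 and 392.02 TPM in Th1_Vitro. The OT-II libraries lay above all libraries of the other Tfh groups, and Th1_Vitro replicate 3 above every library. Phgdh shares 55.8% of its 31-base words with other annotated transcripts, most of them with the pseudogene Gm7901, which was at 0 to 1.48 TPM, so its level is uncertain to the extent that reads were divided between them.

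The log2 fold change of Phgdh in Tfh_OTII against Tfh_Vitro was 0.88 ± 0.45 (SE, adjusted p = 0.456), and in the fit of those groups alone, with an SE of 0.0952, its adjusted p was 0.00301. In Tfh_TILS against Tfh_OTII it was -1.31 ± 0.45 (adjusted p = 0.0699), called after scaling (-1.40 ± 0.44, adjusted p = 0.0481) and in the fit of those groups alone (adjusted p = 0.0211). Leaving Th1_Vitro out of the fit gave an adjusted p of 0.00495. Mthfd1l, which releases formate from mitochondria, was at 46.5, 35.2 and 45.1 TPM in Tfh_TILS, 77.0, 80.8 and 91.5 TPM in Tfh_OTII, 67.3, 62.3 and 65.2 TPM in Tfh_Vitro and 23.0, 30.1 and 72.8 TPM in Th1_Vitro. The 3 Tfh groups did not overlap, with Tfh_OTII highest and Tfh_TILS lowest. Its log2 fold change in Tfh_TILS against Tfh_OTII was -0.96 ± 0.33 (adjusted p = 0.0678), with an adjusted p of 0.0424 after scaling and 0.00944 in the fit of those groups alone. In Tfh_TILS against Tfh_Vitro it was -0.62 ± 0.33 (adjusted p = 0.455), and 0.0364 with Th1_Vitro left out of the fit.

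Shmt2 and Mthfd2, which pass the serine carbon to folate in mitochondria, were also below all OT-II libraries in every tumour library. Shmt2 averaged 79.5 ± 29.0 TPM in Tfh_TILS, 110.8 ± 3.84 TPM in Tfh_OTII, 98.7 ± 12.6 TPM in Tfh_Vitro and 109 ± 55.9 TPM in Th1_Vitro (SD, n = 3 each). Mthfd2 averaged 90.2 ± 22.9 TPM in Tfh_TILS, 136 ± 10.0 TPM in Tfh_OTII, 112 ± 16.4 TPM in Tfh_Vitro and 84.2 ± 32.6 TPM in Th1_Vitro. Neither was called between Tfh groups. The middle and last enzymes of serine synthesis overlapped between all Tfh groups: Psat1 had means of 95.2 ± 36.8 TPM in Tfh_TILS, 99.2 ± 16.5 TPM in Tfh_OTII and 99.9 ± 16.05 TPM in Tfh_Vitro, and Psph of 33.3 ± 12.3, 41.7 ± 6.58 and 36.3 ± 6.34 TPM in the same order. Asns, the asparagine synthetase, was lower in each OT-II library than in each Tfh_Vitro library, with means of 42.7 ± 13.5 TPM in Tfh_TILS, 29.0 ± 0.991 TPM in Tfh_OTII and 42.1 ± 8.07 TPM in Tfh_Vitro, and was not called (log2 fold change -0.50 ± 0.31, adjusted p = 0.572). Aldh1l2, a mitochondrial folate dehydrogenase, had group means of 6.56 to 13.5 TPM and was called in no comparison.

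Of the 9 amino acid transporters, 0 were called between Tfh groups as deposited. Of all tested genes, 0.944% to 7.97% were called per direction in those comparisons. The median log2 fold change of the 9 transporters was 0.45 in Tfh_TILS against Tfh_OTII, against 0.06 over all tested genes, with 9 of 9 above 0. In Tfh_OTII against Tfh_Vitro it was -0.34, against 0.05 over all tested genes, with 9 of 9 below 0. The second comparison shares the Tfh_OTII libraries with the first. In Tfh_TILS against Tfh_Vitro the median was 0.17, against 0.10 over all tested genes.

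Slc7a11 encodes the cystine-glutamate exchanger that supplies cysteine for glutathione. It was at 21.5, 68.0 and 37.3 TPM in Tfh_TILS, 25.3, 12.6 and 7.83 TPM in Tfh_OTII, 8.81, 17.2 and 19.0 TPM in Tfh_Vitro and 14.2, 11.1 and 9.22 TPM in Th1_Vitro. Every tumour library was above every Tfh_Vitro library, and the lowest tumour library was below the highest OT-II library. The log2 fold change was 1.35 ± 0.45 in Tfh_TILS against Tfh_Vitro (SE, adjusted p = 0.165) and 1.41 ± 0.45 in Tfh_TILS against Tfh_OTII (adjusted p = 0.0513), the last called after scaling (1.32 ± 0.39, adjusted p = 0.0378). Its partner subunit Slc3a2, which also carries Slc7a5 to the membrane, was at 154, 314 and 164 TPM in Tfh_TILS, 151, 130.5 and 181 TPM in Tfh_OTII, 177, 159 and 149.5 TPM in Tfh_Vitro and 92.8, 84.6 and 175 TPM in Th1_Vitro. Only Tfh_TILS replicate 2 left the range of the other Tfh libraries.

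Slc38a2 (chr15:96687392-96699730, minus strand) encodes the glutamine and small neutral amino acid transporter SNAT2. It was at 52.0, 55.2 and 51.4 TPM in Tfh_TILS, 33.6, 36.2 and 39.2 TPM in Tfh_OTII, 41.6, 30.3 and 40.4 TPM in Tfh_Vitro and 24.0, 22.8 and 29.4 TPM in Th1_Vitro. The 3 tumour libraries lay close together and above every library of the other Tfh groups. Its log2 fold change was 0.50 ± 0.20 in Tfh_TILS against Tfh_Vitro (SE, adjusted p = 0.262) and 0.53 ± 0.20 in Tfh_TILS against Tfh_OTII (adjusted p = 0.0937; 0.0433 in the fit of those groups alone). In Tfh_Vitro against Th1_Vitro it was called higher as deposited (0.54 ± 0.20, adjusted p = 0.0461) and had the opposite sign after scaling (-0.52 ± 0.22, adjusted p = 0.13), so no direction is given.

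Slc7a3 (chrX:101079210-101086020, minus strand) and Slc7a1 are carriers of arginine and lysine. Slc7a3 was at 5.21, 2.69 and 6.71 TPM in Tfh_TILS, 4.14, 3.04 and 3.11 TPM in Tfh_OTII, 4.42, 4.04 and 5.52 TPM in Tfh_Vitro and 7.37, 12.2 and 11.9 TPM in Th1_Vitro. Every Th1_Vitro library was above every other library, although the 14 dominant gene models left a smaller share of TPM for other genes there. Slc7a3 was lower in Tfh_Vitro than in Th1_Vitro, with a log2 fold change of -0.998 ± 0.303 (SE, adjusted p = 0.0194), and of -1.98 ± 0.31 after scaling (adjusted p = 0.00142). As deposited the call was lost without Tfh_Vitro replicate 1 (adjusted p = 0.0503) or 2 (0.0684) or Th1_Vitro replicate 2 (0.0688). Slc7a1 averaged 54.8 ± 14.6 TPM in Tfh_TILS, 29.97 ± 0.338 TPM in Tfh_OTII and 42.7 ± 7.72 TPM in Tfh_Vitro (SD, n = 3 each). Its OT-II libraries were below all libraries of both other Tfh groups, and its log2 fold change in Tfh_TILS against Tfh_OTII was 0.81 ± 0.36 (adjusted p = 0.151; 0.047 in the fit of those groups alone).

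Slc7a5, the large neutral amino acid transporter LAT1, averaged 60.2 ± 21.9 TPM in Tfh_TILS, 39.4 ± 4.89 TPM in Tfh_OTII and 58.4 ± 11.7 TPM in Tfh_Vitro, and was at 76.0, 36.7 and 196 TPM in Th1_Vitro (SD, n = 3 each). All OT-II libraries were below all Tfh_Vitro libraries for Slc7a5, without a call (adjusted p = 0.734). The neutral amino acid carriers Slc1a5 and Slc1a4 and the glycine transporter Slc6a9 overlapped between all Tfh groups. Their means were 95.1, 69.7 and 90.3 TPM for Slc1a5, 6.85, 4.58 and 6.47 TPM for Slc1a4, and 12.0, 8.001 and 9.82 TPM for Slc6a9, in the order Tfh_TILS, Tfh_OTII, Tfh_Vitro.

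Among the 7 cytosolic aminoacyl-tRNA synthetases, which load amino acids on transfer RNAs, Sars (chr3:108424865-108445209, minus strand) loads serine. It was at 167, 140.0 and 147 TPM in Tfh_TILS, 216, 208 and 228 TPM in Tfh_OTII, 240.3, 192 and 196 TPM in Tfh_Vitro and 65.1, 82.3 and 166 TPM in Th1_Vitro. Every tumour library was below every library of the other Tfh groups. Its log2 fold change was -0.46 ± 0.29 in Tfh_TILS against Tfh_Vitro (SE, adjusted p = 0.562) and -0.52 ± 0.29 in Tfh_TILS against Tfh_OTII (adjusted p = 0.266; 0.0436 in the fit of those groups alone). In Tfh_Vitro against Th1_Vitro, the deposited values called Sars higher (1.11 ± 0.29, adjusted p = 0.00987), but the scaled values did not (0.03 ± 0.29, adjusted p = 0.963).

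Gars, Eprs and Nars, which load glycine, glutamate and proline, and asparagine, were highest in Tfh_OTII. Their means were 134, 192 and 158 TPM for Gars, 129, 165 and 122 TPM for Eprs and 100.5, 132 and 104 TPM for Nars, in the order Tfh_TILS, Tfh_OTII, Tfh_Vitro. For these 3 genes the OT-II libraries lay above all libraries of both other Tfh groups, with no call in the fit over all groups, and Eprs was called in the fit of Tfh_OTII and Tfh_Vitro alone (log2 fold change 0.43, adjusted p = 0.0233). Wars, the tryptophan enzyme, went the other way, with 47.0 ± 8.30 TPM in Tfh_TILS, 35.4 ± 1.27 TPM in Tfh_OTII and 37.1 ± 7.56 TPM in Tfh_Vitro (SD, n = 3 each) and no call. Cars and Aars, which load cysteine and alanine, overlapped between all Tfh groups, with means of 71.2 to 80.1 TPM and 58.5 to 70.3 TPM. Aars shares 13.9% of its 31-base words with another gene's transcripts, and every gene of the 35 apart from it and Phgdh shares 4.15% or less.

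In Tfh_Vitro against Th1_Vitro the 35 genes had a median log2 fold change of 0.45 as deposited, against 0.78 over all tested genes, and of -0.61 after scaling, against 0.14 over all tested genes. Both ways of reading placed the median of the 35 below that of all genes. The scaled values alone called Chac1 (-1.02 ± 0.31, adjusted p = 0.0475), Psat1 (-1.41 ± 0.39, adjusted p = 0.032), Shmt2 (-1.12 ± 0.34, adjusted p = 0.0472), Slc7a5 (-1.57 ± 0.44, adjusted p = 0.0329), Slc7a1 (-1.05 ± 0.33, adjusted p = 0.0488) and Slc1a5 (-1.20 ± 0.31, adjusted p = 0.0206) lower. As deposited, those 6 genes had log2 fold changes of -0.50 for Slc7a5, -0.33 for Psat1, -0.13 for Slc1a5, -0.06 for Chac1, -0.04 for Shmt2 and 0.01 for Slc7a1. Without Th1_Vitro replicate 3, 18 of the 35 genes were called higher in Tfh_Vitro as deposited, against 43.9% of the genes tested in that fit, where 5 were called with all libraries.

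**Figure D5:**
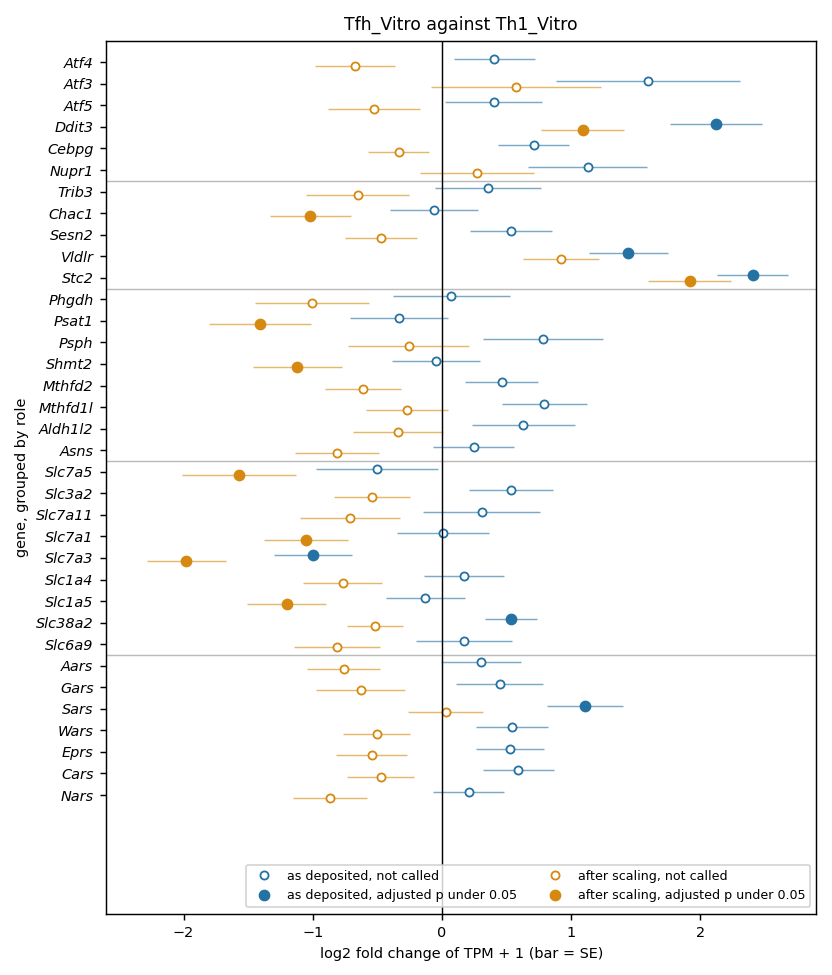
log2 fold change of TPM + 1 in Tfh_Vitro against Th1_Vitro for the 35 genes, as deposited (blue) and after median-of-ratios scaling (orange), with bars for the SE of limma; filled points have an adjusted p under 0.05. Scaling moves the points to the left, and the points filled in both colours on the same side of 0 are Ddit3, Stc2 and Slc7a3.

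The other genes of the pathway were counted in 7 lists with 100 genes in the files. Among 9 genes that act on or around eIF2, mainly its kinases and phosphatase subunits, 0 were called between Tfh groups. Of all tested genes, 0.944% to 7.97% were called per direction in those comparisons. In Tfh_Vitro against Th1_Vitro, 5 of these 9 were called higher as deposited, against 41.1% of all genes, and 0 after scaling, against 8.65%. For the list counts in Tfh_TILS against Tfh_OTII that follow, the shares of all tested genes were 7.97% higher and 7.29% lower. Of 13 other cytosolic aminoacyl-tRNA synthetases, 2 fell in Tfh_TILS against Tfh_OTII, Qars and Vars. Qars, the glutamine enzyme, averaged 63.6 ± 10.1 TPM in Tfh_TILS and 208 ± 12.1 TPM in Tfh_OTII (SD, n = 3 each; log2 fold change -1.71 ± 0.32, adjusted p = 0.00369). Vars, the valine enzyme, averaged 113 ± 16.4 TPM in Tfh_TILS and 344 ± 35.05 TPM in Tfh_OTII (-1.61 ± 0.43, adjusted p = 0.0249). Of the 16 mitochondrial synthetases, 0 were called between Tfh groups, against the same 0.944% to 7.97% of all tested genes per direction.

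Of 13 further one-carbon genes, Ahcy (30.3 ± 3.86 TPM in Tfh_TILS and 80.3 ± 2.59 TPM in Tfh_OTII) and Tyms (46.7 ± 3.65 TPM in Tfh_TILS and 75.7 ± 4.63 TPM in Tfh_OTII) fell in tumour cells against OT-II cultures, with adjusted p of 0.0162 and 0.0459. Tyms makes thymidylate for DNA and is also one of the proliferation markers given above. Of 18 further transporters, 4 rose in Tfh_TILS against Tfh_OTII and 0 fell. Slc1a3, a glutamate transporter, averaged 76.2 ± 33.9 TPM in Tfh_TILS and 7.84 ± 3.42 TPM in Tfh_OTII (log2 fold change 3.12 ± 0.44, adjusted p = 0.000593). Slc38a5, a glutamine transporter, averaged 18.3 ± 1.65 TPM in Tfh_TILS and 3.12 ± 2.12 TPM in Tfh_OTII (2.41 ± 0.40, adjusted p = 0.00179). Slc7a8, a neutral amino acid carrier, averaged 9.92 ± 9.40 TPM in Tfh_TILS and 0.760 ± 0.358 TPM in Tfh_OTII (2.26 ± 0.51, adjusted p = 0.00968). The SD of Slc7a8 in Tfh_TILS nearly equalled its mean. Calls of genes in these lists were not examined with single libraries left out, so the part of Tfh_TILS replicate 2 was not tested.

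Slc1a3 and Slc38a5 also fell in Tfh_OTII against Tfh_Vitro, the 2 of the 18 transporters called lower there, against 1.39% of all genes. Slc1a3 averaged 7.84 ± 3.42 TPM in Tfh_OTII and 46.7 ± 19.7 TPM in Tfh_Vitro (adjusted p = 0.0124), and Slc38a5 3.12 ± 2.12 TPM in Tfh_OTII and 13.9 ± 4.96 TPM in Tfh_Vitro (adjusted p = 0.0219). In Tfh_Vitro against Th1_Vitro, Slc38a5 (13.9 ± 4.96 TPM in Tfh_Vitro and 1.51 ± 0.361 TPM in Th1_Vitro) and Slc43a2, a large neutral amino acid carrier (18.6 ± 4.99 TPM in Tfh_Vitro and 2.497 ± 0.266 TPM in Th1_Vitro), were higher both as deposited and after scaling. They were the 2 of the 18 transporters called higher both ways, against 8.65% of all genes.

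Of 17 genes of cysteine, proline, glutamine and glutathione metabolism, 2 rose and 2 fell in Tfh_TILS against Tfh_OTII. Gclc, the catalytic subunit for glutathione synthesis (29.1 ± 4.32 TPM in Tfh_TILS and 13.0 ± 0.407 TPM in Tfh_OTII), and Got1, the cytosolic aspartate aminotransferase (96.0 ± 52.5 TPM in Tfh_TILS and 36.3 ± 2.56 TPM in Tfh_OTII), rose. Its mitochondrial counterpart Got2 (44.9 ± 2.62 TPM in Tfh_TILS and 129 ± 14.4 TPM in Tfh_OTII) and the branched-chain aminotransferase Bcat2 (14.3 ± 3.01 TPM in Tfh_TILS and 31.8 ± 3.05 TPM in Tfh_OTII) fell. Got1 varied widely among the tumour libraries, and the part of Tfh_TILS replicate 2 in its mean was not tested. Of 13 genes of amino acid sensing, Sesn3 fell (70.1 ± 10.1 TPM in Tfh_TILS and 157.9 ± 45.6 TPM in Tfh_OTII, adjusted p = 0.0148) and Rragd rose (8.41 ± 1.16 TPM in Tfh_TILS and 3.64 ± 0.843 TPM in Tfh_OTII, adjusted p = 0.0317; 0.0783 after scaling). Sesn3, a relative of Sesn2, was also higher in Tfh_Vitro than in Th1_Vitro both ways, at 120.3 ± 8.86 TPM in Tfh_Vitro and 27.4 ± 10.2 TPM in Th1_Vitro. It was the 1 of those 13 genes called higher both ways, against 8.65% of all genes.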

How the data were processed

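Total RNA from CD4+ T cells was depleted of ribosomal RNA, made into stranded libraries and sequenced as pairs of 75 bases, per the labels' protocols. The authors quantified reads with kallisto on mm10, per the submitters' processing notes (version and annotation not given in the sources used here), and deposited TPM, 1 value per symbol and library. Depth is unknown, so no counting interval is given.

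With limma 3.58.1 (R 4.3.3), log2(TPM + 1) was modelled by 1 mean per group over 12 libraries with a trended prior. Tested genes averaged 1 TPM or more in some group, and Benjamini-Hochberg adjustment ran over all of them. Fold changes on this scale understate those of low genes, and p-values measure the spread between libraries, which may be technical. The script was tested on simulated data.

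Members and lists were chosen with earlier results of these data known. All members are named; values per library are given for Atf4 and for members called in a comparison whose higher group averaged 5 TPM or more, and those of Phgdh, Mthfd1l, Atf3, Slc7a11 and Slc3a2 were added after their values were seen. From each pathway list, up to 3 called genes in each direction per comparison, with that mean, could be named, and part of them are. Gene positions are those of GENCODE M21 (GRCm38); promoters are RefSeq's. Figures were drawn with Python 3.11.15 and matplotlib 3.10.9. The alternatives were median-of-ratios scaling, removal of 14 dominant gene models, filters at 0 and 5 TPM, a pseudocount of 0.1, fits of 2 groups alone, a block for the replicate number and each library left out. The fits without Th1_Vitro, and of 2 groups without Tfh_TILS replicate 2, were chosen after seeing the data. A result for 1 gene of these lists is not reported here.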

Additional observations from a re-analysis of the deposited data

How the results depend on the processing

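Of the member fold changes recomputed under each alternative (1995 values), 1877 kept their side of the threshold, 79 passed it, 35 no longer passed it and 4 reversed. The causes were not tested. A value counts as reversed only if it changed sign and was called before or after the change. Changes of sign without a call are among the 1877. An example is Chac1 in Tfh_TILS against Tfh_Vitro, at 0.050 as deposited and -0.055 after scaling. The 4 values reversed in this sense were all in Tfh_Vitro against Th1_Vitro. They were Slc7a1 after scaling (-1.05), Slc38a2 after scaling (-0.52) and with the 14 dominant gene models removed (-0.44), and Nars with those models removed (-0.79). Counts of members called moved as follows. In Tfh_TILS against Tfh_Vitro, 1 was lower with Th1_Vitro left out. In Tfh_OTII against Tfh_Vitro, the 0 higher became 3 in the fit of the 2 groups and 1 with Th1_Vitro left out, and the 1 lower became 0 after scaling, with dominant models removed, with a pseudocount of 0.1 and with no filter, 5 in the fit of the 2 groups and 2 with Th1_Vitro left out. In Tfh_TILS against Tfh_OTII, the 2 higher became 8 with dominant models removed, 1 with a pseudocount of 0.1, 1 with no filter, 4 with the filter at 5 TPM, 4 in the fit of the 2 groups, 7 with Th1_Vitro left out and 11 in the fit of the 2 groups without Tfh_TILS replicate 2. The 1 lower there became 3 after scaling, 2 with the filter at 5 TPM, 4 in the fit of the 2 groups, 4 with Th1_Vitro left out and 3 in that fit without Tfh_TILS replicate 2. In Tfh_Vitro against Th1_Vitro, the 5 higher became 2 after scaling and 3 with dominant models removed, and the 1 lower became 7 and 6. Leaving out each library in turn gave 0 to 0 for Tfh_OTII against Tfh_Vitro lower, 0 to 2 for Tfh_TILS against Tfh_OTII higher, 4 to 18 for Tfh_Vitro against Th1_Vitro higher (18 without Th1_Vitro replicate 3) and 0 to 1 for its lower count. Deviations from the group mean correlated at -0.386 to 0.303 between same-numbered libraries of different groups. With 3 libraries a group, and no differently numbered pairs set beside them, these values do not decide whether the numbers pair libraries. With the replicate block, 0 members were lower in Tfh_OTII against Tfh_Vitro and 4 higher in Tfh_TILS against Tfh_OTII. With 3 libraries a group and no depth, small differences of low genes could not be resolved.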
